A study of Mus musculus with 30 samples.

Results

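Cultures of embryonic mouse telencephalon that lacked Xbp1 were compared with wild-type cultures after both had been exposed to BDNF for 48 h, with 5 arrays of each genotype among the 30 arrays of the series. The embryos came from crosses of Xbp1 +/- mice and were dissected at embryonic day 12.5. Telencephalic cells of 6 Xbp1 -/- embryos formed a single knockout pool, and those of 4 Xbp1 +/+ embryos a single wild-type pool. Each pool was plated at low density in serum-free medium, BDNF was given at 100 ng/ml on day 3 in vitro, and RNA was taken from these 10 dishes on day 5, with 1 array per dish. The other groups used below are dishes of the same pools lysed on day 4, either without BDNF (called basal here) or after 24 h of BDNF, with 5 dishes per genotype each. All dishes of a genotype therefore share their embryos. Genotype and embryo pool cannot be told apart, and the p-values measure the spread between dishes of a pool. Which part of Xbp1 was deleted is not stated in the labels, and embryos without functional Xbp1 are known to die before birth with an underdeveloped liver.

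XBP1 carries part of the unfolded protein response to the nucleus. When unfolded proteins build up in the endoplasmic reticulum (ER), the sensor IRE1 cuts the Xbp1 mRNA, and the spliced form encodes a factor that raises the expression of ER chaperones, protein translocation components and degradation factors. Other arms of the response run through ATF6 and through PERK, which acts by way of ATF4 and CHOP. BDNF is a secreted growth factor of neurons. It binds TrkB, activates the ERK kinases, and in young telencephalic neurons it promotes the maturation of GABAergic interneurons, which make the inhibitory transmitter GABA and peptides such as somatostatin and neuropeptide Y. The comparison bears on which genes differ between genotypes once both have received BDNF.

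Values are log2 signals relative to the array's own median, so that 0 is the median probe set of an array, and a difference of 1 is a factor of 2. A gene "rose" or "fell" where the knockout minus wild-type difference passed an adjusted p of 0.05 in a limma fit. Differences are given with their standard error and rest on 5 arrays per genotype. Before scaling, array medians lay between 106 and 128 in the wild type and between 111.7 and 138.5 in the knockout. The ratio of 3' to 5' Gapdh probe sets, which grows as RNA is degraded or labelled incompletely, was 2.47 ± 0.09 in the wild type and 2.39 ± 0.21 in the knockout (SD, n = 5). The first principal component of the 10 arrays held 52.5% of the variance and separated the genotypes. The second held 14.9% and set replicates 1 and 2 of both genotypes apart from replicates 3 to 5, a split the labels do not explain. Neuronal markers (Tubb3, Map2, Stmn2, Gap43) and Gad1 lay above the array median on all 10 arrays. So did mesenchymal Col1a1, Col1a2 and Col3a1, whereas astrocytic Gfap and Aqp4, oligodendroglial Sox10 and Pdgfra, microglial Cx3cr1 and endothelial Pecam1, Cdh5 and Cldn5 lay below it on all 10. Other markers of these classes lay higher: microglial Csf1r and oligodendroglial Mbp were above the median on all 10 arrays and astrocytic Aldh1l1 on 9. Pecam1 was at the floor of the scale on 9 arrays and Cdh5 on 7. In such bulk RNA, fewer cells of a type and less RNA per cell cannot be told apart, which holds for every cell-type marker below.

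Of 7190 autosomal genes tested, 1722 (23.9%) differed between the genotypes at 48 h. The knockout was higher for 691 genes (9.61%) and lower for 1031 (14.3%). These shares are the background for every count of list members below. The filter on mean signal keeps a dim gene more readily where one genotype is high, so counts over tested members do not speak for untested ones. The median difference over all tested genes was -0.07, and the balance of directions moved with scaling: 40.1% of called genes were higher in the knockout after division by the median, 49.7% after scaling to the 75th percentile, 52.8% after quantile normalization and 65.3% in the values as deposited. Large changes went mostly upward. A factor of 2 or more was reached by 157 rises and 20 falls, and a factor of 4 by 13 rises and 2 falls. The 5 knockout and 5 wild-type arrays did not overlap for 1200 of the 7190 genes (16.7%), among them 538 of the genes that rose and 558 of those that fell. With 48 h replicates 1 and 2 alone 492 genes rose and 391 fell, and with replicates 3 to 5 alone 545 rose and 596 fell. A term for replicates 3 to 5 gave 720 rises and 1163 falls.

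The targeted gene itself did not pass the test by its brightest probe set. Xbp1 stood at 4.43, 4.54, 4.70, 4.70 and 4.82 on the wild-type arrays and at 4.74, 4.67, 4.76, 4.65 and 4.87 on the knockout arrays. The groups overlapped, with a difference of 0.10 ± 0.06 (adjusted p = 0.234); the call was gained with quantile normalization (0.16), 75th-percentile scaling (0.13) and the mean of the gene's probe sets (0.22). Xbp1 is represented by 4 probe sets, and they disagreed. Probe set 1420011_s_at read 2.05, 1.92, 1.73, 2.07 and 2.06 in the wild type and 2.80, 2.88, 2.92, 2.67 and 2.82 in the knockout, a rise of 0.85 ± 0.10 (adjusted p = 4.76e-07) without overlap. The remaining probe sets, 1420012_at, 1420886_a_at and 1437223_s_at, differed by -0.07, 0.01 and 0.10 and did not pass. None of the 4 probe sets was lower by more than its error in the knockout, so these arrays give no check of the genotype at the level of the transcript, since a deletion need not remove the part a probe set reads.

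The 12 largest rises were in Slc6a3, Epyc, Foxa1, Dkk2, Id3, Thbd, Tal1, Fbn2, Fmod, Foxd1, Tfap2b and Msx2. They were taken from called genes whose knockout and wild-type arrays did not overlap. Slc6a3, the dopamine transporter, read -1.76, -2.21, -2.12, -2.41 and -1.77 in the wild type and 1.22, 0.99, 1.34, 1.498 and 1.64 in the knockout. Every knockout array was thus above the array median and every wild-type array well below it, a difference of 3.39 ± 0.19 or 10.5-fold (adjusted p = 1.68e-15). Foxa1, a transcription factor of the floor plate and of dopaminergic precursors, read 1.97, 1.68, 1.96, 1.78 and 2.12 in the knockout against -0.88, -0.68, 0.65, -1.11 and -1.23 in the wild type (2.55 ± 0.22, adjusted p = 2.62e-11). Wild-type replicate 3 stood above the other wild-type arrays but below every knockout array. Epyc (epiphycan) and Fmod (fibromodulin), proteoglycans of extracellular matrix, rose by 2.81 ± 0.16 and 2.07 ± 0.13, and Fbn2, the microfibril protein fibrillin-2, rose by 2.08 ± 0.12. Among regulators, Dkk2, a modulator of Wnt signalling, rose by 2.29 ± 0.13, Tal1, which specifies GABAergic neurons of the midbrain and hindbrain as well as blood cells, by 2.08 ± 0.11, and Foxd1 and Tfap2b by 2.07 ± 0.15 and 2.07 ± 0.13. Thbd, the endothelial and mesothelial receptor thrombomodulin, rose by 2.13 ± 0.13.

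Id3, an inhibitor of basic helix-loop-helix factors induced by BMP signals, read 2.41, 2.70, 2.43, 2.72 and 2.62 in the knockout and 0.89, 0.46, 0.15, 0.20 and 0.27 in the wild type (2.18 ± 0.12, adjusted p = 8.69e-16). Msx2, another target of BMP signals, rose by 2.00 ± 0.16. Other genes tied to BMP signals were looked up after these values were seen, and not from a list of BMP genes, so they give no evidence about the pathway. The ligand Bmp4 rose by 1.55 ± 0.14, from 1.02, 0.99, 1.20, 1.54 and 1.76 to 2.74, 3.03, 2.75, 3.02 and 2.71, and Id1 by 1.19 ± 0.12, Msx1 by 0.84 ± 0.13 and Id4 by 0.32 ± 0.06, whereas Id2 fell by 0.37. The groups overlapped for Id2 and did not for the others. They did not overlap for 16.7% of all tested genes. Some of these genes are also counted in lists below: Id1, Id3 and Id4 among progenitor genes, Msx1 and Msx2 among choroid plexus genes and Id2 among cortical genes.

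The 12 largest falls, also taken from called genes without overlap, were led by Ttr, Krt8 and Folr1. Ttr, transthyretin, the main secretory product of choroid plexus epithelium, read 6.91, 6.99, 6.82, 7.02 and 6.98 in the wild type and 5.10, 4.26, 3.96, 3.19 and 5.31 in the knockout. The knockout dishes were all lower and also far more scattered, with an SD of 0.86 against 0.08, and the difference was -2.58 ± 0.46 (adjusted p = 5.02e-05). Krt8, a keratin of simple epithelia, fell by 2.07 ± 0.24 and Folr1, the folate receptor of choroid plexus, by 1.90 ± 0.15. Tcim, a regulator of Wnt signalling, fell by 1.65 ± 0.14 and C1ql3, a secreted synaptic protein, by 1.31 ± 0.12. The other large falls were Neurod2, Fezf2, Neurod6, Neurod1, Sst, Npy and Dlx1as, the antisense transcript of Dlx1, and they are described with their groups below. For Dlx1as the difference was -1.23 ± 0.21; reads of an antisense transcript and of its partner can be hard to separate on an array.

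**Figure D1:**
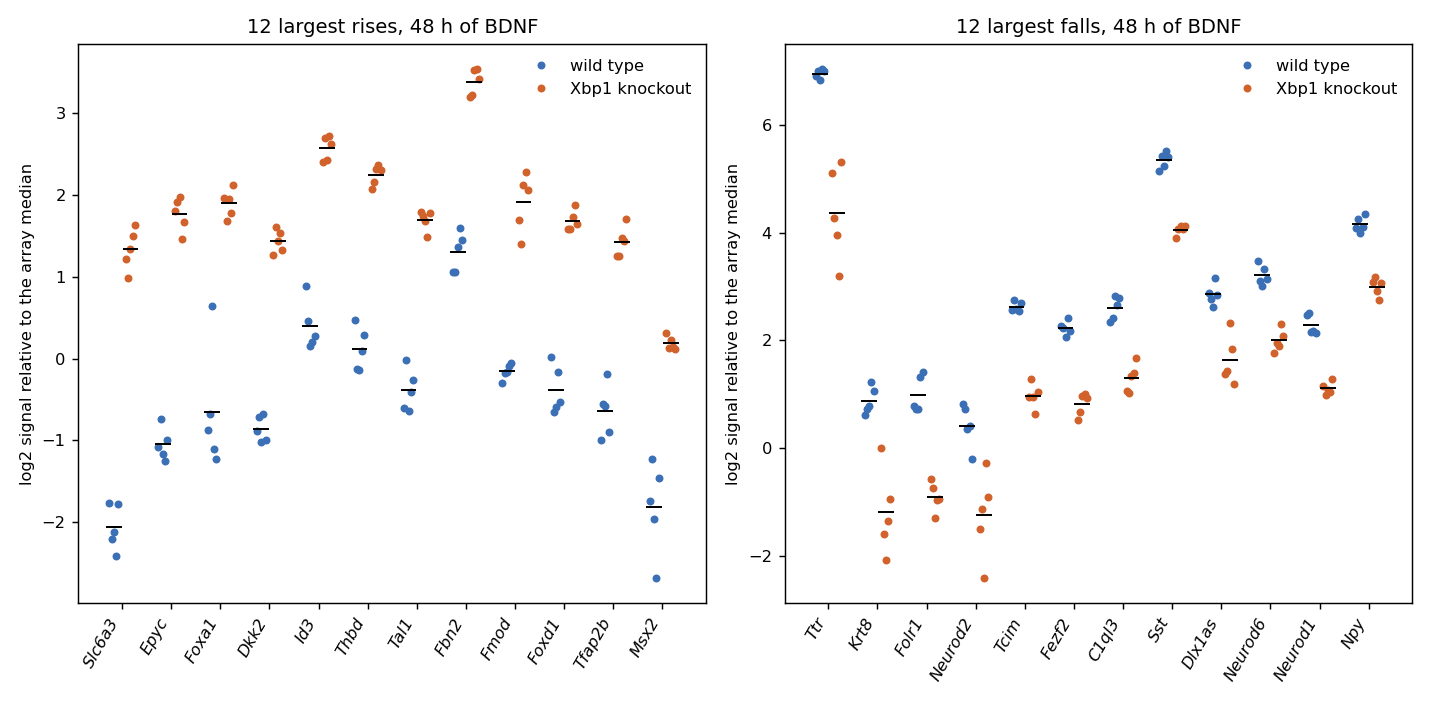
Log2 signal relative to the array median (vertical axis) for the 12 genes with the largest rises (left) and the 12 with the largest falls (right) after 48 h of BDNF, with each dot an array (5 per genotype) and each bar the group mean. Knockout and wild-type dots do not overlap for any of these genes, which the rule for choosing them required; Slc6a3 has the widest gap, and Ttr, Neurod2 and Krt8 the widest knockout scatter.

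Genes that XBP1 is known to drive in the ER were called about as often as other genes, 22.6% of those tested beside 23.9% of all. By direction, 15.1% rose beside 9.61% of all genes, and 7.55% fell beside 14.3%. Of 58 genes listed, 54 were measured and 53 tested; 8 rose, 4 fell and 41 did not pass, with a median difference of -0.00 (0.05 with quantile normalization) beside -0.07 for all tested genes. In those 53 genes the count of rises was 14 with quantile normalization, 12 with 75th-percentile scaling and 4 with replicates 1 and 2 alone. Of all 7190 tested genes, 799, 785 and 492 rose in these settings. The main chaperones did not pass. Hspa5 (BiP), the chief ER chaperone, read 5.98, 6.14, 6.16, 6.19 and 6.33 in the wild type and 6.22, 6.24, 6.18, 6.15 and 6.30 in the knockout, a difference of 0.06 ± 0.06 (adjusted p = 0.485). Hsp90b1 (GRP94) differed by 0.01 ± 0.06 (adjusted p = 0.955). Both are named after their values were seen.

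The 4 falls concerned protein entry and folding. Dnajb9 (ERdj4), a co-chaperone of BiP and one of the genes most dependent on XBP1 in other cells, read 3.58, 3.50, 4.03, 3.78 and 3.63 in the wild type and 3.15, 3.11, 3.43, 3.09 and 3.14 in the knockout (-0.52 ± 0.10, adjusted p = 0.000157). All knockout arrays lay below all wild-type arrays, although the call was lost with replicates 1 and 2 alone. Sec61b, a subunit of the translocation channel, fell by 0.36 ± 0.07, Sec11c, a subunit of signal peptidase, by 0.53 ± 0.07, and Txndc11, a thioredoxin-like protein, by 0.45 ± 0.11. The 8 rises were led by Kdelr3, a receptor that returns chaperones from the Golgi, at 1.67, 1.57, 1.93, 1.96 and 1.68 in the knockout against 0.22, 0.61, 0.34, 0.61 and 0.34 (1.34 ± 0.11, adjusted p = 2.25e-11). Txndc5, a protein disulfide isomerase, rose by 0.47 ± 0.10, Ckap4 and Rrbp1, proteins that shape sheet-like ER, by 0.42 ± 0.08 and 0.26 ± 0.07, and Sec24d and Lman1, a coat subunit and a cargo receptor of ER export, by 0.40 ± 0.09 and 0.38 ± 0.08. Stt3a, a catalytic subunit of oligosaccharyltransferase, rose by 0.26 ± 0.05. The disulfide isomerase Pdia3 rose by 0.26 ± 0.10 (adjusted p = 0.0494), and this call was lost without any of 7 single arrays (wild-type 1, 2 and 4, knockout 2 to 5), with adjusted p up to 0.15.

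Promoters of ER genes are shown for the members whose values separate these outcomes: Hspa5 and Hsp90b1, which carry an ER stress element and did not pass the test, and the 4 called genes that carry the core of the UPR element. The ER stress element was searched as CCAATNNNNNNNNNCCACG, its variant II as ATTGGNCCACG and the core as CCACGTCA, on both strands of windows from 250 bases before to 50 after each start in RefSeq (GRCm38.p6). The 3 can overlap in CCACG. The first occurs in 0.119% of 32851 windows of 27025 genes, the second in 0.0365% and the third in 0.676%. The 250 bases before the start are given 5' to 3' on the gene's strand, with the matches in capitals. They lie at chr2:34771840-34772089 (plus strand) for Hspa5, chr10:86705445-86705694 (minus) for Hsp90b1, chr15:79516158-79516407 (plus) for Kdelr3, chr13:38527915-38528164 (minus) for Txndc5, chr3:123267246-123267495 (plus) for Sec24d and chr16:11134533-11134782 (minus) for Txndc11.
Hspa5: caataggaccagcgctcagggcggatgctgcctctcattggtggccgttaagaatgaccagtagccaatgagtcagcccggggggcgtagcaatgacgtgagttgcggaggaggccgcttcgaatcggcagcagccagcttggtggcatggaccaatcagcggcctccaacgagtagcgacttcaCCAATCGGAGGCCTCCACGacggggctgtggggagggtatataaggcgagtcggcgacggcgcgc
Hsp90b1: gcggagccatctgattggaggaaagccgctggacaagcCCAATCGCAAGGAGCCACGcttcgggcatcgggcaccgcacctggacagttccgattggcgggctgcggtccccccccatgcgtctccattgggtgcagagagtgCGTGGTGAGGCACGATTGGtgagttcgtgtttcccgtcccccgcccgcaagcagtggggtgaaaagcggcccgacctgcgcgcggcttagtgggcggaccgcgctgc
Kdelr3: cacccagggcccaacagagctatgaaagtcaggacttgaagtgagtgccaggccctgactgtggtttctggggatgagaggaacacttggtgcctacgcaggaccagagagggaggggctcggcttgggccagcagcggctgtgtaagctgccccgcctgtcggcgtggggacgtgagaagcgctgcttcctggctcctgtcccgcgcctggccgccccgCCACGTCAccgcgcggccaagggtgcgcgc
Txndc5: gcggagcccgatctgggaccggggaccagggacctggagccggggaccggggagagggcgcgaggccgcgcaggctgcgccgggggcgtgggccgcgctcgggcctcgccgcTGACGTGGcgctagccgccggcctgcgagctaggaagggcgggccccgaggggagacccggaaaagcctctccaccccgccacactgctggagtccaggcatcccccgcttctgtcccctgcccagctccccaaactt
Sec24d: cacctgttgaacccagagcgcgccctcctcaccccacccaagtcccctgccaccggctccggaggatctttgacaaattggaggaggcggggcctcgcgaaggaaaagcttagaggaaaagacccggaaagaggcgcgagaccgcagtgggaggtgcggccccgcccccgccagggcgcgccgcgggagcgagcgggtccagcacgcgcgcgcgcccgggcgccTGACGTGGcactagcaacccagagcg
Txndc11: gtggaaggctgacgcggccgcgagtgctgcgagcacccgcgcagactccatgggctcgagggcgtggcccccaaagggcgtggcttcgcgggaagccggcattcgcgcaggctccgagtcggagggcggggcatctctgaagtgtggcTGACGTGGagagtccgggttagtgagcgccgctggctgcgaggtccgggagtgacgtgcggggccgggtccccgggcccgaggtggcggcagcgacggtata

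Matches of these letters did not follow the calls in a simple way. Among the ER genes with a window, the ER stress element was found in 0 of the 7 that rose, 0 of the 3 that fell and 8 of the 31 that did not pass. The core was found in 3 of the 7 that rose (Kdelr3, Txndc5 and Sec24d), 1 of the 3 that fell (Txndc11) and 1 of the 31 that did not pass (Copb2). The 8 with an ER stress element (Hspa5, Hsp90b1, Dnajc3, Pdia6, Calr, Canx, Creld2 and Ero1b) differed by between -0.08 and 0.18. These counts describe the windows and were given no test.

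Degradation factors and sensors were also called at shares near the 23.9% of all genes, 17.6% and 22.2%. Of 20 genes of ER-associated degradation, 18 were measured and 17 tested; 1 rose, 2 fell and 14 did not pass, with a median of -0.11. Sel1l, an adaptor of the HRD1 ubiquitin ligase, rose by 0.34 ± 0.10, Edem1, which directs misfolded glycoproteins to degradation, fell by 0.29 ± 0.10, and Selenos, a selenoprotein of the same complex, fell by 0.21 ± 0.07. Each of these 3 calls rested on single arrays. Sel1l was lost without knockout replicate 1 (adjusted p = 0.0725), Edem1 without any of 4 arrays (wild-type 2, knockout 2, 3 and 5; adjusted p up to 0.086) and Selenos without any of 4 (wild-type 2 and 4, knockout 1 and 5; up to 0.132). Edem1 and Selenos also missed the threshold under quantile and 75th-percentile scaling, and the mean of its probe sets gave -0.03 for Edem1. Of 13 sensors and transducers of the response, 12 were measured and 9 tested; 2 fell and 0 rose in the limma fit (3 lower and 2 higher at an unadjusted p under 0.05), with a median of -0.12. Eif2ak3, which encodes PERK, fell by 0.39 ± 0.08 (adjusted p = 0.000292). Atf6 fell by 0.36 ± 0.11, a call lost without wild-type 3, knockout 1 or knockout 3 (adjusted p up to 0.0708).

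Of ATF4 and CHOP targets 23.1% were called, close to the 23.9% of all genes, with 19.2% higher beside 9.61%. Of 31 listed, 29 were measured and 26 tested; 5 rose, 1 fell and 20 did not pass, with a median of -0.02 (0.02 with quantile normalization). Nupr1, a stress-induced chromatin protein, read 1.06, 1.27, 1.60, 1.94 and 1.60 in the knockout and -0.29, 0.34, 0.38, 0.10 and 0.19 in the wild type (1.35 ± 0.19, adjusted p = 1.08e-06). Eif4ebp1, a repressor of cap-dependent translation, rose by 0.86 ± 0.08, Trib3, a pseudokinase, by 0.66 ± 0.10 and Mthfd2, a mitochondrial folate enzyme, by 0.42 ± 0.09. Sesn2, a stress-induced inhibitor of mTORC1 signalling and named after its values were seen, rose by 0.41. The groups were apart for each of the 5, as for 538 of all 691 genes that rose and 16.7% of all tested genes.

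**Figure D2:**
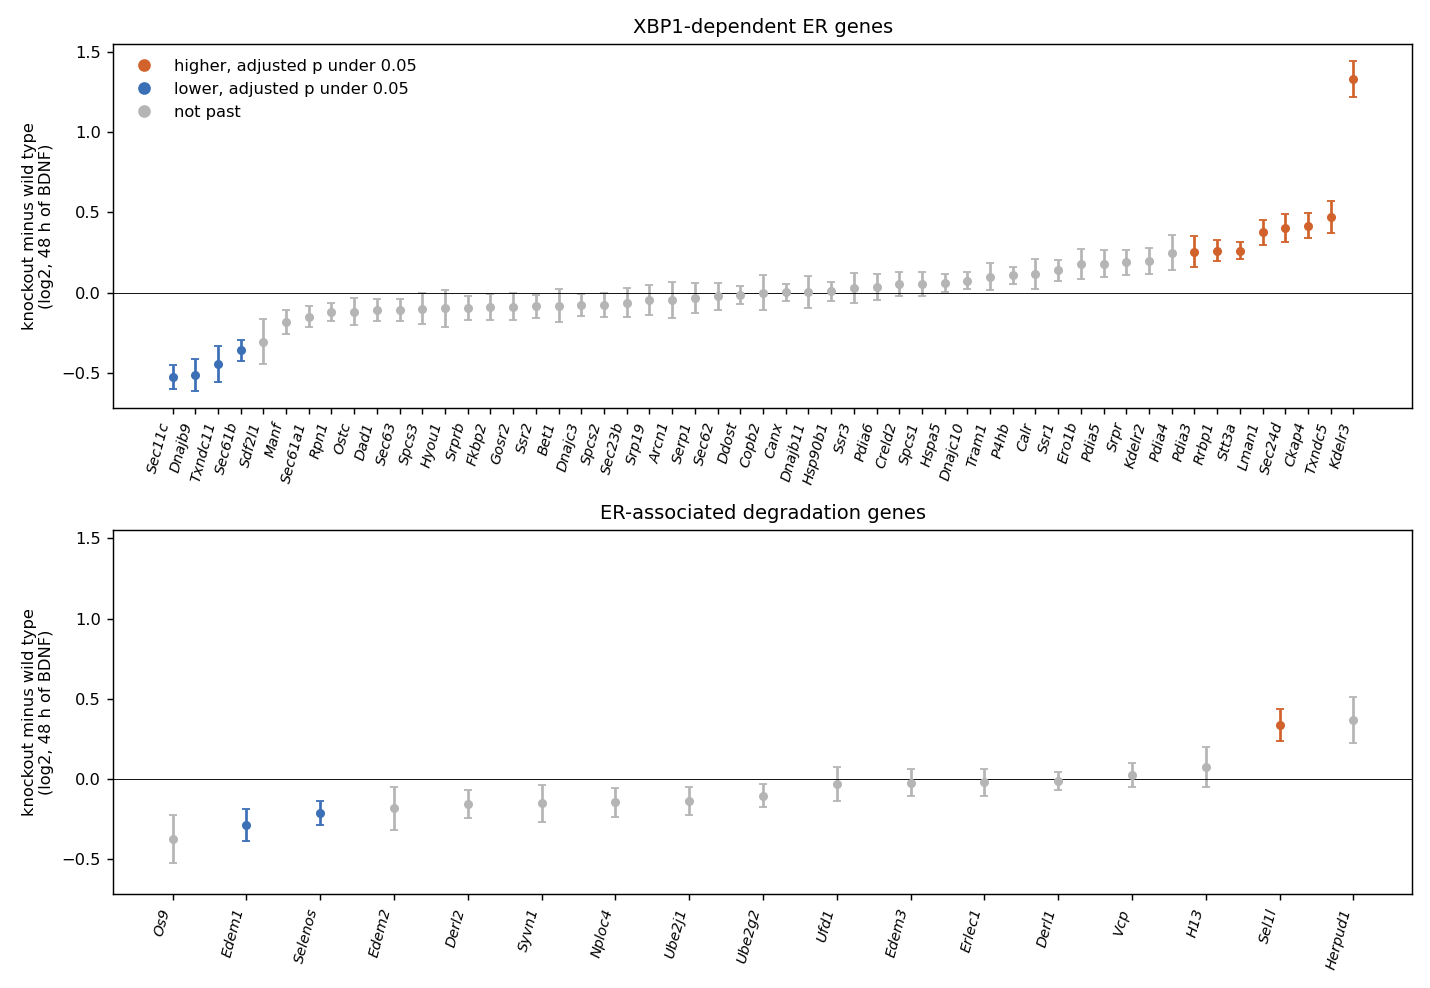
Knockout minus wild-type difference after 48 h of BDNF (log2, vertical axis) for 53 tested XBP1-dependent ER genes (top) and 17 tested genes of ER-associated degradation (bottom), ordered by size, with bars of 1 standard error. Most points lie near 0; Kdelr3 stands apart at 1.34, and Sec11c and Dnajb9 are the lowest at -0.53 and -0.52.

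Gad1 and Slc32a1 fell among the genes of GABA synthesis and transport. Of 7 genes listed, 5 were measured and 4 tested; 2 fell and 0 rose in the limma fit (3 lower and 0 higher at an unadjusted p under 0.05), and the median was -0.34; 14.3% of all tested genes fell. Gad1, which makes most of the GABA in neurons, read 5.98, 6.08, 6.01, 6.20 and 6.24 in the wild type and 5.72, 5.80, 5.86, 5.63 and 5.75 in the knockout. The groups did not overlap, and Gad1 fell by 0.35 ± 0.07 or 1.27-fold (adjusted p = 0.000488), a call lost with replicates 1 and 2 alone. Slc32a1, the vesicular GABA transporter, fell by 0.34 ± 0.11; the groups overlapped, the call was lost without wild-type 4 or knockout 1 (adjusted p up to 0.0777) and the mean of its probe sets gave 0.03. Gad2, the second GABA-making enzyme, differed by -0.33 ± 0.15 (adjusted p = 0.115, and 0.0244 when only the 10 arrays compared were fitted) and Abat, which breaks GABA down, by -0.03 ± 0.12. In basal dishes the same differences were -0.08 for Gad1, 0.12 for Gad2, -0.28 for Slc32a1 and 0.06 for Abat. None of these genes was among the 11 whose genotype difference changed past the threshold between basal and 48 h dishes.

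Sst, Npy, Calb1 and Reln fell among the peptides and calcium-binding proteins of interneurons. All 14 listed genes were measured and 9 were tested; 4 fell, 0 rose in the limma fit (4 lower and 0 higher at an unadjusted p under 0.05) and 5 did not pass, with a median of -0.20; the 4 are 44.4% of those tested, beside 14.3% of all genes. Sst, somatostatin, read 5.13, 5.42, 5.23, 5.51 and 5.40 in the wild type and 3.89, 4.06, 4.13, 4.06 and 4.12 in the knockout, 2.44-fold lower (-1.29 ± 0.08, adjusted p = 1.2e-14). Npy read 4.08, 4.25, 3.99, 4.11 and 4.35 against 3.09, 3.17, 2.92, 2.74 and 3.07 (-1.16 ± 0.10, adjusted p = 7.92e-11). Both peptides were lower in every knockout dish than in any wild-type dish, which the rule for the 12 largest falls required. Calb1, calbindin, fell by 0.85 ± 0.09 and Reln, reelin, by 0.54 ± 0.08, again without overlap. The peptides Cck, Tac1, Penk and Pnoc and the calcium-binding Calb2 differed by -0.17, 0.03, 0.09, -0.18 and -0.20 and did not pass. Sst and Npy were already 1.01 and 0.61 lower in basal knockout dishes.

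Most tested transcription factors of the GABAergic lineage fell, 64.3% beside 14.3% of all genes, and 28.6% rose beside 9.61%. Of 27 listed, 21 were measured and 14 tested; 9 fell, 4 rose and 1 did not pass, with a median of -0.53. Lhx6, needed for interneurons of the medial ganglionic eminence, read 2.33, 2.49, 2.14, 2.45 and 2.40 in the wild type and 1.41, 1.42, 1.42, 1.40 and 1.43 in the knockout (-0.95 ± 0.08, adjusted p = 1.76e-11). Satb1, which acts downstream of Lhx6, fell by 0.87 ± 0.11. Dlx1, Dlx2, Dlx5 and Dlx6, the homeobox genes of the ganglionic eminences, fell by 0.36, 0.71, 0.62 and 0.59; they are named after their values were seen. The 4 rises included Ebf1, a factor of striatal and of several non-telencephalic neurons, at 0.88 ± 0.15, and Zfhx3 at 0.78 ± 0.11. The number of falls was 5 with replicates 1 and 2 alone, beside 4 rises, and 7 with replicates 3 to 5 alone. Of all 7190 tested genes, 391 and 596 fell in these subsets. The number of rises was 2 with replicates 3 to 5 alone and without wild-type 1, wild-type 2 or knockout 3. Of 6 measured GABA-A and glycine receptor subunits 4 were tested, and 50% fell beside 14.3% of all genes. Glrb fell by 0.45 ± 0.10, and Gabrb1 by 0.36 ± 0.11, the latter lost without knockout 2 (adjusted p = 0.0835).

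Most tested genes of cortical projection neurons and the dorsal telencephalon fell, 83.3% beside 14.3% of all genes. Of 30 listed, 24 were measured and 18 tested; 15 fell, 1 rose and 2 did not pass, with a median of -0.90 against -0.07 for all tested genes. Fezf2, which specifies subcerebral projection neurons, read 2.26, 2.24, 2.06, 2.41 and 2.18 in the wild type and 0.53, 0.67, 0.97, 0.998 and 0.94 in the knockout (-1.41 ± 0.12, adjusted p = 2.82e-11). Neurod6 read 3.47, 3.09, 3.01, 3.33 and 3.14 against 1.76, 1.96, 1.90, 2.31 and 2.09 (-1.21 ± 0.11). Both groups of 5 were apart for either gene, which the rule for the 12 largest falls required. The related neuronal differentiation factors Neurod1 and Neurod2 fell by 1.18 ± 0.10 and 1.66 ± 0.27, the latter with a knockout SD of 0.79. The basal differences of Fezf2, Neurod6, Neurod1 and Neurod2 were -1.47, -1.38, -0.97 and -1.23. The number that fell ranged from 12 to 15 over the replicate subsets, arrays left out and scalings tried.

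Genes of the midbrain, hindbrain and diencephalon rose in 57.9% of tested members, beside 9.61% of all genes. Of 49 listed, 43 were measured but only 19 passed the filter on low signal. Of these 19, 11 rose, 1 fell and 7 did not pass, with a median of 1.14. Without the filter 18 of the 43 rose, beside 816 of all 11984 genes. Besides Foxa1 and Tal1, Irx3, an Iroquois factor of caudal forebrain and midbrain, rose by 1.57 ± 0.19 and Lhx9, a factor of thalamus and pretectum, by 1.48 ± 0.09, at 1.56, 1.56, 1.52, 1.28 and 1.68 in the knockout against 0.11, 0.10, -0.28, 0.24 and 0.03. No knockout array overlapped with a wild-type array for any of the 11. The same held for 538 of all 691 genes that rose and for 16.7% of all tested genes. Other dopamine genes did not all move as Slc6a3 did. Ddc, the decarboxylase that makes dopamine and serotonin, rose by 1.37 ± 0.15, whereas Th, tyrosine hydroxylase, differed by 0.34 ± 0.17 (adjusted p = 0.147), and Nr4a2, a factor of dopaminergic neurons, fell by 0.37, a call lost without wild-type 1, 3 or 4 or knockout 1, 3, 4 or 5. Th and Nr4a2 are named after their values were seen, and Ddc lies near Xbp1 on its chromosome.

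Of general neuronal genes 30% of those tested fell, beside 14.3% of all genes. Of 25 listed, 21 were measured and 20 tested; 6 fell, 0 rose in the limma fit (8 lower and 2 higher at an unadjusted p under 0.05) and 14 did not pass, with a median of -0.11, while quantile normalization gave 4 falls and 2 rises. Map2, a dendritic microtubule protein, read 2.26, 2.35, 2.34, 2.32 and 1.78 in the wild type and 1.18, 0.92, 1.75, 1.58 and 2.01 in the knockout. The groups overlapped, the fall was 0.72 ± 0.20, and the call was lost with replicates 3 to 5 alone and with the mean of its probe sets. Syt1, a calcium sensor of vesicle release, fell by 0.51 ± 0.15 and missed the threshold without knockout 2 (adjusted p = 0.0582). Elavl3, an RNA-binding protein, fell by 0.29 ± 0.09 and missed it without wild-type 4 (0.0609), and the neuronal enolase Eno2 fell by 0.28 ± 0.07. Tubb3, named after its values were seen, differed by -0.16 ± 0.07 (adjusted p = 0.0966).

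Of 30 listed genes of synaptic vesicles and exocytosis, 24 were measured and 20 tested; 6 fell, 14 did not pass and 0 rose in the limma fit (8 lower and 0 higher at an unadjusted p under 0.05), with a median of -0.16. The complexins Cplx1 and Cplx2, which clamp and promote vesicle fusion, fell by 0.54 ± 0.07 and 0.64 ± 0.11, beta-synuclein (Sncb) by 0.59 ± 0.11 and the vesicle SNARE Vamp2 by 0.50 ± 0.10. Knockout and wild-type arrays did not overlap for these 4, as for 16.7% of all tested genes. Falls made up 30% of the tested vesicle and exocytosis genes, beside 14.3% of all genes. Of 26 listed genes of secretory granules and neuropeptides, 20 were measured and 16 tested; 3 rose and 1 fell, with a median of -0.04 that became 0.04 with quantile normalization. The PACAP precursor Adcyap1, the prohormone convertase Pcsk1 and the granin Chgb rose by 0.54 ± 0.13, 0.49 ± 0.12 and 0.31 ± 0.07. The granin-like Scg3 fell by 0.42 ± 0.07. Of the tested granule and neuropeptide genes 25% were called, near the 23.9% of all genes.

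Nearly every tested mesenchymal and meningeal marker rose. Of 29 listed, 27 were measured and 24 tested; 21 rose, 2 fell and 1 did not pass, with a median of 1.02; of all tested genes 9.61% were higher. The members that fell were Postn (-0.50) and Thy1 (-0.57), named after their values were seen; Thy1 is also a neuronal surface protein. Lum (lumican), a collagen-binding proteoglycan, read 3.12, 3.19, 3.19, 3.40 and 3.39 in the knockout and 1.83, 1.23, 1.29, 1.64 and 1.78 in the wild type (1.70 ± 0.15, adjusted p = 9.16e-11). The collagen chain Col1a2, named after its values were seen, read 6.24, 6.32, 6.31, 6.28 and 6.42 against 5.09, 5.14, 5.12, 5.41 and 5.41 (1.08 ± 0.07). Fmod and Foxd1, given above, and Islr (1.61 ± 0.17) were the other large rises. The level of the list on an array, taken as the median over its members after each was centred on its wild-type mean, ranged from -0.09 to 0.11 over the wild-type arrays and from 0.90 to 1.14 over the knockout arrays. In basal dishes 21 of these 24 members were higher in the knockout, with a median of 0.94, beside 9.08% of all genes there. The part that mesenchymal cells had in the values of neuronal genes was not tested.

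Vascular markers did not move as a block. Of 22 measured endothelial and pericyte genes only 6 were tested, with a median of 0.40. Among the 6, 3 rose (50%, beside 9.61% of all genes) and 1 fell (16.7%, beside 14.3%). The mural and smooth muscle genes Pdgfrb, Tagln and Acta2 rose by 1.35 ± 0.13, 1.10 ± 0.13 and 0.57 ± 0.07, and Rgs5, a pericyte gene, fell by 1.07 ± 0.12. The defining endothelial genes Pecam1, Cdh5 and Cldn5 were too low to be tested. Of 19 measured choroid plexus and epithelial genes 8 were tested, with a median of 0.70. Among the 8, 5 rose (62.5%, beside 9.61% of all genes) and 3 fell (37.5%, beside 14.3%). The 3 that fell were the differentiated products Ttr, Krt8 and Folr1, and among those that rose were Msx2 and Msx1 and, named after its values were seen, Otx2 (1.27), factors of dorsal midline and choroid plexus precursors. Kl, a further choroid plexus gene, lay at the floor on 5 of the 10 arrays.

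Of 21 measured microglial and phagocyte markers 11 were tested, with a median of 0.31. Of these, 5 rose (45.5%, beside 9.61% of all genes) and 1 fell (9.09%, beside 14.3%). The complement gene C1qb rose by 0.80 ± 0.18, at 0.35, 0.56, 0.68, 0.46 and 0.94 in the knockout against -0.60, -0.47, -0.04, 0.17 and -0.09. Other rises were less secure. C1qa (0.60 ± 0.20) was lost without any of 4 arrays (wild-type 1 and 4, knockout 1 and 2; adjusted p up to 0.0864) and Tyrobp (0.54 ± 0.17) without wild-type 1 or knockout 2 (up to 0.0858), and only 1 member rose with replicates 3 to 5 alone. Cd68, a lysosomal protein, fell by 0.86 ± 0.19. The number of rises was 3 without wild-type 1 or 4 and 2 without knockout 2. The level of the list, formed as for the mesenchymal markers, ranged from -0.40 to 0.17 in the wild type and from 0.28 to 0.58 in the knockout.

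Most tested interferon-stimulated genes rose, 84.6% beside 9.61% of all genes, but 11 of the 24 measured were too dim to be tested. Of 29 listed, 24 were measured and 13 tested; 11 rose, 1 fell and 1 did not pass, with a median of 0.65. The RNA sensor Ifih1 (MDA5) read 0.31, 0.12, 0.42, 0.20 and 0.70 in the knockout and -0.68, -0.50, -0.95, -0.74 and -0.85 in the wild type (1.10 ± 0.14, adjusted p = 2.27e-07). Ifit1, Ifi35 and Ifit3 rose by 0.97 ± 0.13, 0.89 ± 0.19 and 0.82 ± 0.13. The groups did not overlap for these genes, as for 16.7% of all tested genes. In basal dishes 8 of these 13 members were higher in the knockout, with a median of 0.57, beside 9.08% of all genes there.

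**Figure D3:**
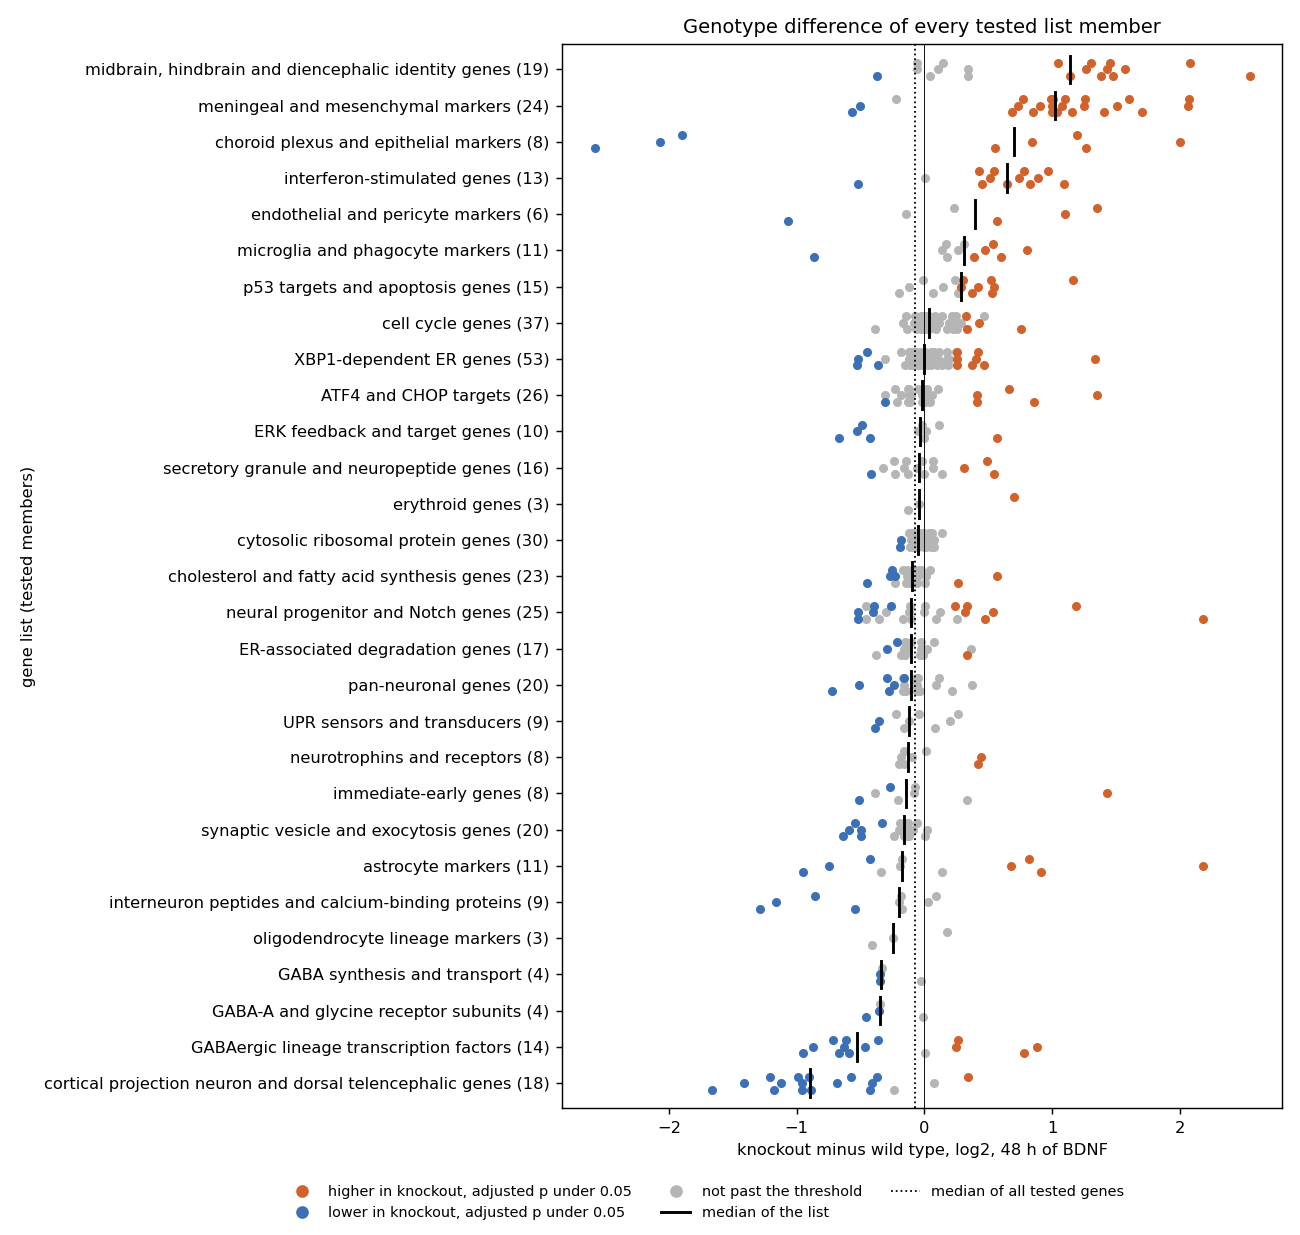
Knockout minus wild-type difference after 48 h of BDNF (log2, horizontal axis) of each tested member of the 29 gene lists (rows, tested members in brackets), with the list median as a black bar and the median of all tested genes, -0.07, as a dotted line. Midbrain and hindbrain, mesenchymal and interferon-stimulated genes lie to the right and cortical and GABAergic genes to the left, while the XBP1-dependent ER genes centre on 0.

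Astrocyte markers split. Of 16 measured, 11 were tested, with a median of -0.18. Among the 11, 4 rose (36.4%, beside 9.61% of all genes) and 3 fell (27.3%, beside 14.3%). The gap junction protein Gja1 rose by 0.82 ± 0.09 and the hyaluronan receptor Cd44 by 0.91 ± 0.15, the same list also holds Id3, and Clu (clusterin) fell by 0.95 ± 0.09. Of 10 measured oligodendrocyte lineage markers 3 were tested and 0 passed in the limma fit (2 lower and 0 higher at an unadjusted p under 0.05), with a median of -0.25. Of 7 measured erythroid genes 3 were tested; the embryonic globin Hbb-bh1 rose by 0.70 ± 0.24, a call lost without wild-type 4, knockout 3 or knockout 5 (adjusted p up to 0.124), and the median was -0.04. The list of neural progenitor and Notch genes also split, with 7 rises and 5 falls among 25 tested of 29 measured and a median of -0.10. Rises were 28% of those tested, beside 9.61% of all genes, and falls 20%, beside 14.3%. Without knockout 4 the falls numbered 8. Prom1, a membrane protein of progenitors, rose by 0.54 ± 0.10, and Sox2, the factor that keeps neural stem cells, fell by 0.52 ± 0.08, at 3.46, 3.59, 3.65, 3.49 and 3.67 in the knockout against 4.28, 4.00, 3.99, 4.08 and 4.10.

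Genes of the BDNF response were examined as readouts of the treatment that both genotypes received. Of 17 listed genes of ERK feedback, 13 were measured and 10 tested, with a median of -0.03 (0.01 with quantile normalization). Of the 10, 4 fell (40%, beside 14.3% of all genes) and 1 rose (10%, beside 9.61%). In basal dishes 2 of the 10 were lower and 2 higher in the knockout, beside 18.7% and 9.08% of all genes there. Spry2, a feedback inhibitor of receptor tyrosine kinases, read 2.98, 2.65, 2.95, 3.12 and 2.93 in the wild type and 2.14, 2.25, 2.35, 2.21 and 2.34 in the knockout (-0.67 ± 0.09, adjusted p = 3.12e-07). Its basal difference was -0.16 and that at 24 h -0.80. Spry2 was not among the 11 genes whose genotype difference changed past the threshold between basal and 48 h dishes. Spred2, another inhibitor of ERK activation, fell by 0.53 ± 0.07 and the ERK phosphatases Dusp14 and Dusp6 by 0.48 ± 0.13 and 0.43 ± 0.08, while Ier3 rose by 0.57 ± 0.09. Of 18 measured immediate-early genes 8 were tested, with a median of -0.14. Klf4 rose by 1.43 ± 0.10 (12.5% of those tested), and Nr4a1 and Jun fell by 0.51 ± 0.10 and 0.27 ± 0.07 (25%). In basal dishes 3 of these 8 members were lower and 1 was higher in the knockout, beside 18.7% and 9.08% of all genes there. Of 13 measured neurotrophins, receptors and adaptors 8 were tested, and 25% rose beside 9.61% of all genes. The adaptor Gab1 rose by 0.44 ± 0.08 and Bdnf itself by 0.42 ± 0.14. The Bdnf call was lost without any of 5 arrays (wild-type 1, 2 and 4, knockout 1 and 5; adjusted p up to 0.0803), and with 48 h replicates 1 and 2 alone neither gene passed.

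Listed targets of the tumour suppressor p53 together with apoptosis genes rose in 53.3% of tested members, beside 9.61% of all genes. Of 22 listed, 19 were measured and 15 tested; 8 rose, 7 did not pass and 0 fell in the limma fit (8 higher and 0 lower at an unadjusted p under 0.05), with a median of 0.28. Pmaip1 (Noxa), a mitochondrial death factor, read 1.56, 1.65, 1.74, 1.80 and 1.77 in the knockout and 0.52, 0.50, 0.59, 0.43 and 0.67 in the wild type (1.16 ± 0.11, adjusted p = 1.47e-10). Perp, Ccng1 and Phlda3 rose by 0.55 ± 0.09, 0.53 ± 0.07 and 0.52 ± 0.09. Their groups did not overlap, as for 16.7% of all tested genes. Cell cycle genes rose about as often as other genes, 10.8% beside 9.61%. Of 37 tested of 38 measured, 4 rose, 33 did not pass and 0 fell in the limma fit (8 higher and 1 lower at an unadjusted p under 0.05), with a median of 0.04. Ccnd1, cyclin D1, rose by 0.75 ± 0.11, Ccnb2 by 0.43 ± 0.13 and Ccnd2 by 0.33 ± 0.08. Mcm6 rose by 0.33 ± 0.12 and was lost without any of 7 arrays (wild-type 2, 4 and 5, knockout 1, 2, 4 and 5; adjusted p up to 0.158). With replicates 1 and 2 alone no cell cycle gene rose in the limma fit.

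Housekeeping pathways gave small differences. Of 24 measured genes of cholesterol and fatty acid synthesis 23 were tested, with a median of -0.10. Of these, 2 rose and 4 fell, and the share called, 26.1%, was near the 23.9% of all genes. The desaturase Scd1 rose by 0.57 ± 0.14 and the lipid regulator Srebf1 by 0.27 ± 0.08, whereas Mvd, an enzyme of the mevalonate pathway, fell by 0.45 ± 0.10 and the cholesterol carrier Stard4 by 0.27 ± 0.09. Stard4 was lost without wild-type 4 or knockout 5 (adjusted p up to 0.0824), and the number that fell was 1 without wild-type 4 and 2 without wild-type 3, wild-type 5, knockout 1 or knockout 2. Of 31 measured cytosolic ribosomal protein genes 30 were tested; 2 fell, 28 did not pass and 0 rose in the limma fit (4 lower and 0 higher at an unadjusted p under 0.05), with a median of -0.05 (0.03 with quantile normalization). Rps14 fell by 0.19 ± 0.05 and Rps9 by 0.18 ± 0.06, which makes 6.67% of those tested, beside 14.3% of all genes that fell. The Rps9 call was lost without any of 6 arrays (wild-type 1, 2 and 4, knockout 1, 2 and 5; adjusted p up to 0.14).

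The genotype difference at 48 h was then set beside those of the dishes lysed earlier, which share the embryo pools but no array. In basal dishes 653 genes (9.08%) were higher and 1342 (18.7%) lower in the knockout, and at 24 h 601 (8.36%) were higher and 1271 (17.7%) lower. Of the 691 genes higher at 48 h, 537 were also higher in basal dishes and 509 at 24 h, 122 were called at neither time, and 2 were called in the opposite direction at an earlier time. Of the 1031 lower genes, 622 and 628 were lower in basal dishes and at 24 h, 267 were called at neither, and 4 were opposite. As shares of the basal lists, these are 82.2% of the higher and 46.3% of the lower genes. Across the 7190 genes the differences at 48 h correlated with the basal ones at r = 0.860 and with those at 24 h at r = 0.860; genes are not independent, the times share their pools, and these values are a description.

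A change of the genotype difference itself was detected for few genes. In an interaction test against basal dishes 11 of 7190 genes (0.153%) passed, with 498 at an unadjusted p under 0.05, and against 24 h 5 genes (0.0695%) passed, with 435 unadjusted. BDNF and a day more in culture differ together between basal and 48 h dishes. Pcsk5, a proprotein convertase, was 0.59 higher in the basal knockout, and its difference of -0.24 at 48 h did not pass the threshold. Its interaction was -0.83 ± 0.13 (adjusted p = 0.00256). Its 48 h values were 1.23, 1.499, 1.34, 1.41 and 1.57 in the wild type and 1.19, 1.16, 1.19, 1.21 and 1.10 in the knockout. Igf1, insulin-like growth factor, was 0.54 higher in the basal knockout and differed by 0.00 ± 0.07 at 48 h, an interaction of -0.54 ± 0.10 (adjusted p = 0.0156). These 2 interactions passed without each of the 10 arrays in turn; the other 9 each lost the call without at least 4 of them.

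Among those 9, the ERK phosphatase Dusp6 differed by 0.12 in basal dishes and by -0.43 at 48 h (interaction -0.55 ± 0.12), and Slit2, an axon guidance cue, by 0.88 and 0.41 (-0.47 ± 0.10). Igfbp4, a binding protein of insulin-like growth factors, was 2.05 higher in the basal knockout and 1.30 higher at 48 h (-0.75 ± 0.15), and Rps9 went from 0.23 to -0.18. In the other direction, Pcsk1 went from -0.35 to 0.49 (0.84 ± 0.17), Igfbp7 from -0.28 to 0.53 (0.81 ± 0.17), Ndrg2, an astrocytic gene, from -1.22 to -0.32 (0.89 ± 0.19), Clu from -1.58 to -0.95 (0.63 ± 0.13) and Id3 from 1.42 to 2.18 (0.76 ± 0.16). The 48 h difference of Ndrg2 did not pass the threshold. The highest adjusted p with an array left out ranged over these 9 from 0.0637 for Igfbp4 to 0.131 for Rps9. Leaving out knockout 1 ended all 9 of these calls, and leaving out wild-type 4 or 5 or knockout 2 or 4 ended 8 each. The number of genes past the test was 2 without knockout 1, 3 without wild-type 4, wild-type 5, knockout 2 or knockout 4, and 5 without wild-type 3. Against 24 h, the 5 genes that passed, named after their values were seen, were Id3 (0.82), Thbd (0.91), Homer2 (0.57), Map1b (-0.72) and Ing3 (-0.94).

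**Figure D4:**
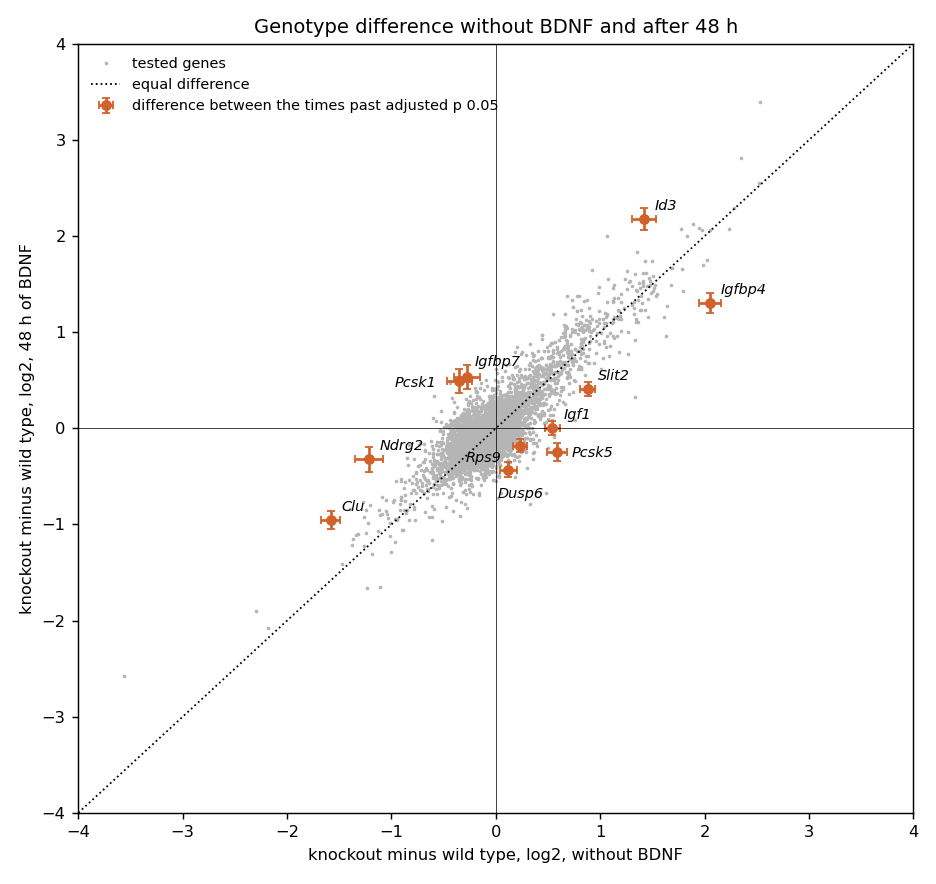
Knockout minus wild-type difference (log2) in basal dishes (horizontal axis) and after 48 h of BDNF (vertical axis) for 7190 tested genes in grey, with the 11 genes whose difference changed between the times in orange and bars of 1 standard error. Most genes follow the dotted line of equal difference; Pcsk5, Dusp6 and Igf1 lie below it and Pcsk1, Igfbp7 and Id3 above it.

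Genes next to Xbp1 on chromosome 11 were listed because a knockout allele carries the flanking sequence of the line in which it was made. Of the 49 tested genes nearest to Xbp1 (24 before and 25 after it in the RefSeq order), 7 rose and 9 fell, or 32.7%, beside 24.7% of the 624 tested genes of the chromosome and a range of 20.1% to 30.8% over the 19 autosomes. Shares of so few genes vary more than those of whole chromosomes, so the 32.7% cannot be ranked against that range. Among the 20 nearest, 2 rose and 6 fell (40%, beside 23.9% of all tested genes). Nf2, the tumour suppressor merlin, read 2.02, 2.18, 2.17, 2.14 and 2.38 in the wild type and 1.06, 1.003, 1.09, 1.18 and 1.25 in the knockout (-1.06 ± 0.07, adjusted p = 3.9e-14). The matrix protein Aebp1 rose by 1.26 ± 0.17, Tcn2, a carrier of vitamin B12, by 0.80 ± 0.16, the growth factor receptor adaptor Grb10 by 0.71 ± 0.06 and the selenoprotein Selenom by 0.65 ± 0.09, with Ddc given above. Ccdc117, the tested gene next to Xbp1 and named after its values were seen, fell by 0.58. The part of linked sequence in these values was not tested.

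**Figure D5:**
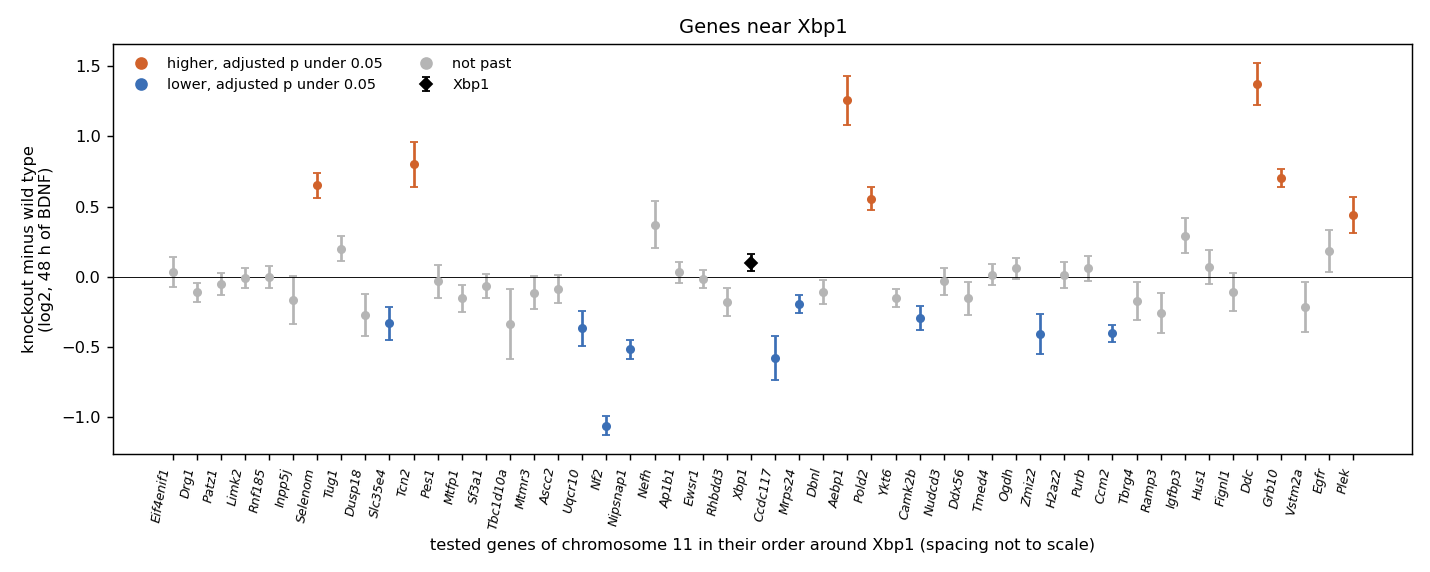
Knockout minus wild-type difference after 48 h of BDNF (log2, vertical axis, bars of 1 standard error) for the 49 tested genes nearest to Xbp1 on chromosome 11, in their order along the chromosome and not to scale, with Xbp1 as a black diamond. Orange points rose, blue points fell; Nf2 is the lowest at -1.06, and Ddc (1.37) and Aebp1 (1.26) are the highest.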

How the data were processed

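Gene expression was measured on Affymetrix mouse arrays, 1 per dish, after 2 rounds of amplification of the RNA. The authors deposited 1 table of signal intensity values for 30 arrays and 22690 probe sets, produced with MAS5 per the submitters' processing notes; its version and settings are not given in the sources used here. From these values each array was divided by its median, values under 0.1 of the median were raised to 0.1, and log2 was taken. Of the probe sets, 20393 had 1 gene symbol, 691 several and 1606 none in the platform annotation, and only the first were used; symbols were updated through RefSeq. The brightest probe set stood for each gene. Genes on X and Y (410 of 12394) were left out, since the sexes of pooled embryos are not given, and the upper 60% by mean signal over all arrays, 7190 genes, were tested.

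Differences were tested with limma 3.58.1 in R 4.3.3, with 1 model of 6 groups fitted to all 30 arrays, an intensity trend in the prior variance, two-sided tests and Benjamini-Hochberg adjustment over the 7190 genes at 0.05; the interaction tests used the same model. Xbp1 probe sets were fitted among 19712 probe sets. The script was tested on simulated data. All samples were grouped by their titles. Same-numbered 48 h arrays of the genotypes had correlations between -0.06 and 0.28 in their deviations from the group means, so replicate numbers were not taken as pairs. No arrays were identical; the highest correlation between 48 h arrays was 0.991. The number of arrays limits the precision.

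Genes were named by rule: the 12 largest rises and falls without overlap, every called member of the ER and degradation lists, every tested member of the GABA synthesis and interneuron lists, up to 4 called members of each other list by size, up to 6 changes of the difference from basal to 48 h in each direction, and up to 6 called neighbours of Xbp1. There were 29 lists. Others are said to be named after their values were seen, which also holds for every further list member that is given only as a name and a difference. The members, lists and tests were chosen with earlier results of these data known. Alternatives covered scaling, floor, filter, probe set choice, sex chromosomes, arrays fitted, replicate block, trend, weights, Gapdh ratio, replicate subsets, leaving out each 48 h array and thresholds; a term for replicates 3 to 5 was chosen after seeing the data. Promoter windows came from RefSeq (GRCm38.p6).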

Additional observations from a re-analysis of the deposited data

Results flagged for a closer look

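Single arrays stood apart from the other 4 of their group in 15 of 284 groups of 5 examined (142 genes in 2 genotypes), and chance gives about 1 in 20 groups. In the knockout these were Sst in replicate 1 (3.89, the others 4.06 to 4.13), Dnajb9 in replicate 3 (3.43, the others 3.09 to 3.15), Gad2 in replicate 5 (1.71), Eno2 in replicate 4 (3.36), Bdnf in replicate 2 (1.87), Id1 in replicate 1 (0.58), Ifit1 in replicate 2 (0.82) and Slit2 in replicate 5 (4.13). In the wild type they were Edem1 in replicate 2 (1.79), Map2 in replicate 5 (1.78), Ndrg2 in replicate 5 (0.74) and, all in replicate 1, Gabrb1 (2.84), Cd44 (0.31), Igf1 (3.24) and Tcn2 (-0.95).

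The genotype difference itself changed between basal and 48 h dishes for 11 genes by an interaction term. The change was 0.89 for Ndrg2, 0.84 for Pcsk1, 0.81 for Igfbp7, 0.76 for Id3 and 0.63 for Clu. It was -0.83 for Pcsk5, -0.75 for Igfbp4, -0.55 for Dusp6, -0.54 for Igf1, -0.47 for Slit2 and -0.41 for Rps9. Days in culture and BDNF differ together between those dishes, and the Gapdh ratio and array medians differed as well.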

How the results depend on the processing

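Of 127 called genes among the 142 named, 62 kept their call in every alternative that could be run for them (28 to 30 of 30, since some filters and probe set choices drop a gene), and 111 kept it without each single array. Genes that fell numbered 295 with the values as deposited, 391 with replicates 1 and 2 alone, 596 with replicates 3 to 5 alone, 546 at an adjusted p under 0.01 and 112 at 1.5-fold or more; genes that rose numbered 377 among the upper 40% of genes and 359 at 1.5-fold. Genes whose difference changed from basal to 48 h numbered 0 in the limma fit of the values as deposited (210 at an unadjusted p under 0.05), 5 without a filter, 3 among the upper 40%, 4 with the mean of probe sets, 4 without a trend, 27 with array weights, 1 with replicates 1 and 2, 5 with replicates 3 to 5, 1 at an adjusted p under 0.01 and 7 at 1.5-fold; they cannot be fitted from the 10 arrays alone. With single arrays left out, 637 to 744 genes rose, 734 to 1270 fell and 2 to 12 changed. Xbp1 passed the threshold with quantile normalization (0.16), 75th-percentile scaling (0.13) and the mean of probe sets (0.22). A replicate block gave 723 rises, 1134 falls and 12 changes over 30 arrays, and 719 rises and 1101 falls over the 10; 3 of 10 arrays correlated best with their own number. Gad2 passed with only the 10 arrays (adjusted p = 0.0244) and with the block on them (0.0164), and did not with the block over 30 (0.0911).

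The sign changed in some setting for 6 named genes. Of these only Slc32a1 (-0.344) was past the threshold, and its call held in 22 of 30 alternatives. Abat was 0.0192 with quantile normalization, 0.00288 with 75th-percentile scaling, 0.00378 as deposited, 0.0839 with the mean of probe sets and 0.0217 with replicates 1 and 2. Slc32a1 was 0.0347 with the mean of probe sets. Tac1 was -0.0417 with array weights and -0.168 with replicates 3 to 5, and Igf1 -0.0395 and -0.0686. Hsp90b1 was -0.0158 with the Gapdh ratio as covariate and -0.0102 with replicates 3 to 5, where Hspa5 was -0.0161. Without single arrays Abat ranged from -0.105 to 0.0489, Tac1 from -0.0794 to 0.148, Igf1 from -0.0614 to 0.0333 and Hsp90b1 from -0.0244 to 0.0302. The cause was not tested for these changes. Embryo pool and genotype cannot be told apart under any setting.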
